A study of Rattus norvegicus with 4 samples.

Results

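Transcripts of 6 myelin and oligodendrocyte genes, Mbp, Mag, Mog, Mobp, Cnp and Ugt8, were followed in rat cortex taken from the hemisphere with an experimental stroke. Members were all non-control probe sets whose only gene symbol in the platform annotation was one of these 6, which gave 13 probe sets for 6 of the 4736 genes named on the array in this way. The rats were ovariectomised females in which the middle cerebral artery was closed for 2 h from inside the vessel, and they received estradiol or placebo. Both groups therefore lacked ovaries and both had the stroke, and neither an unoperated nor an intact group was analysed here. Each group had 2 Affymetrix rat genome arrays. RNA of 3 animals was pooled for each array, so a group stands for 6 animals. The arrays are called estradiol 1, estradiol 2, placebo 1 and placebo 2 after the numbers in their labels, and values in a row follow this order. Strain, age and estradiol dose are not given in the sources used here. The codes of the arrays carry a 6, and the design text names tissue taken at 6 and 24 h, but no label states the time.

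Oligodendrocytes wrap axons of the central nervous system in myelin, a compact stack of membrane that speeds conduction and feeds the axon. The stack is built from a few very abundant proteins and from lipids rich in galactose, and the messenger RNA of Mbp is carried out to the growing sheath and translated there. In the adult brain these transcripts are densest in white matter and are present at lower density through the cortical layers, most of all the deep ones. In the pooled tissue measured here, fewer oligodendrocytes and less RNA per oligodendrocyte cannot be told apart.

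Of the 13 probe sets, 12 passed the filter on dim values and were tested, and all 12 lay above the brightest bacterial, yeast or mouse control probe set of their array on each of the 4 arrays. The brightest such control stood between 30.1 and 37.8. The remaining probe set, Ugt8 U07683_at, stood at 15.5, 14.6, 11.9 and 1.2 in estradiol 1, estradiol 2, placebo 1 and placebo 2, within background on all 4, so it gives no fold. The oligodendrocyte label was therefore borne by measurable defining transcripts. The medians of the 4 arrays spanned 0.0558 on the log2(intensity + 16) scale used for all differences here, and between 58.9 and 64.6% of probe sets stood above background. Intensities of different probe sets are not set against each other, since probes bind with different strength.

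With single arrays compared, the median over the 6 genes was 0.29 for estradiol 1 minus 2 and 0.63 for placebo 1 minus 2. For an estradiol array minus a placebo array it was -0.22 (1 and 1), 0.08 (2 and 2), 0.42 (1 and 2) and -0.52 (2 and 1). The sizes overlapped, so pools of a group were not shown to differ more than treatments did. By these medians, the member genes were brighter in estradiol 1 and placebo 1 than in estradiol 2 and placebo 2. Both arrays numbered 1 exceeded both arrays numbered 2 in 11 of 12 tested probe sets, where 17.4% of all 5244 tested probe sets did so. With limma and Benjamini-Hochberg adjustment, 0 of the 12 probe sets differed between estradiol and placebo (0% of all tested probe sets were called), and 0 of 12 had an unadjusted p below 0.05, where 3.07% of all tested probe sets did.

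The sequence just before the start is shown for 3 members chosen by their place in this pattern. By the brightest probe set of each gene, Mobp had the largest difference between pools in both groups, Mag the smallest in placebo, and Cnp lay closest to the mean pattern of the 6 genes. Between the estradiol pools the smallest difference was that of Mog, 0.06, beside 0.27 for Mag, but Mog had no matched window. Sequences are from RefSeq on assembly GRCr8, 250 bases ending at the base before the transcript start that RefSeq's table uses, 5′ to 3′ on the gene's strand. Capitals mark matches on either strand to ACAAAG, a core of sites bound by SOX proteins such as the oligodendrocyte factor SOX10, and to CTGGCAC or CTGGTAC, the core bound by the myelin regulatory factor MYRF.
Mobp, chr8:128746982-128747231, plus strand: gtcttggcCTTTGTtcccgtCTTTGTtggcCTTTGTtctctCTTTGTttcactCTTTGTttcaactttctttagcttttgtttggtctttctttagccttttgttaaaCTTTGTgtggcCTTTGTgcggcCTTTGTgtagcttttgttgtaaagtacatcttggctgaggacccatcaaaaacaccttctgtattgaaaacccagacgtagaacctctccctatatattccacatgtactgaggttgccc
Cnp, chr10:86011254-86011503, plus strand: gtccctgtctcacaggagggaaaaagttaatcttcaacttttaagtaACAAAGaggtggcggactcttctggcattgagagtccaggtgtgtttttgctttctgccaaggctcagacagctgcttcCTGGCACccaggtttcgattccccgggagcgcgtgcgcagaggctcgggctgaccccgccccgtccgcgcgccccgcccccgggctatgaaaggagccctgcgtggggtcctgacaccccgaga
Mag, chr1:95291045-95291294, minus strand: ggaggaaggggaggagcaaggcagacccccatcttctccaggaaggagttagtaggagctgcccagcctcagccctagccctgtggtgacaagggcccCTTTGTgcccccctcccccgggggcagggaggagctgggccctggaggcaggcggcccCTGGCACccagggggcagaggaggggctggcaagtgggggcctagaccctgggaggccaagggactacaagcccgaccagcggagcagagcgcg
The Mobp window held 8 matches to ACAAAG, all on the strand opposite to the gene and seen as CTTTGT, within a run rich in T. Cnp and Mag held 1 each, and 16.3% of all 33469 windows of this length held at least 1. At least 8 matches were found in 2 windows, or 0.00598%. CTGGCAC was found once in Cnp, ending 117 bases before the start, and once in Mag, ending 87 bases before it, and in 3.78% of all windows. CTGGTAC, held by 1.78% of all windows, was found in neither of them nor in Mobp. The Ugt8 window held none of these letters and had 81.2% G and C, against 41.6% in Mobp, 60.4% in Cnp and 70% in Mag. Of the 2 windows for Mbp, 1 held ACAAAG once and neither held CTGGCAC or CTGGTAC. Windows matched 5 of the 6 members, all but Mog. These are matches of letters, with no measure of binding behind them.

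**Figure D1:**
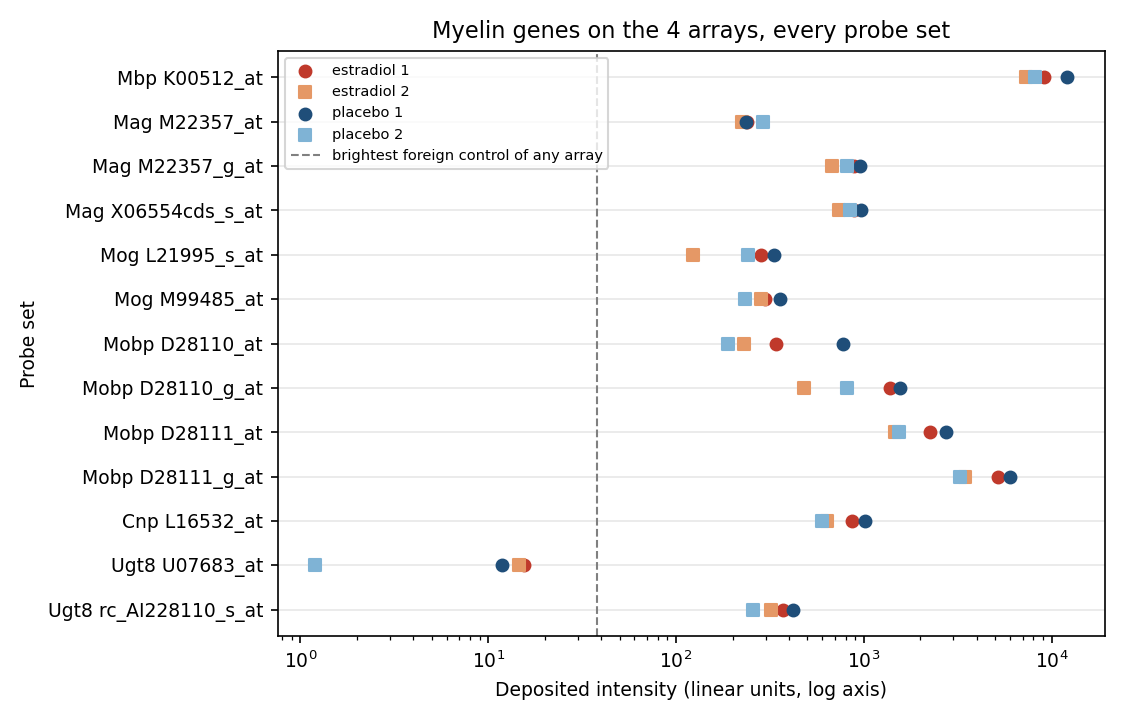
Deposited intensity (linear units on a log axis) of each of the 13 probe sets on the 4 arrays, with circles for arrays numbered 1, squares for arrays numbered 2, red shades for estradiol, blue shades for placebo, and a dashed line at 37.8, the brightest foreign control of any array. Placebo 1 was the highest array in 11 of 12 tested probe sets, as in 23% of all tested probe sets, and Ugt8 U07683_at lay left of the dashed line on all arrays.

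Mbp encodes myelin basic protein, which binds the inner faces of the membrane together in compact myelin. Its probe set, K00512_at, had intensities of 9112 (estradiol 1), 7301 (estradiol 2), 12087 (placebo 1) and 8178 (placebo 2). Placebo 1 was highest and estradiol 2 lowest, and the values of the groups overlapped. The mean of the estradiol arrays was 8206 ± 1280 (SD, n = 2) and that of the placebo arrays 10130 ± 2764 (SD, n = 2). The log2 fold change was -0.29 ± 0.24 (SE), with a 95% interval from -0.85 to 0.27 (limma, adjusted p = 0.998). The interval reaches from a marked fall to a small rise. Left out one at a time, the arrays moved the value to -0.44 (without estradiol 1), -0.13 (without estradiol 2), -0.0038 (without placebo 1) and -0.57 (without placebo 2).

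Mobp encodes a small basic protein of the cytosolic side of compact myelin, close in place to myelin basic protein. It has 4 probe sets, built on the entries D28110 and D28111, and those built on 1 entry can share sequence and are not independent. The brightest, D28111_g_at, read 5192 in estradiol 1, 3441 in estradiol 2, 5968 in placebo 1 and 3247 in placebo 2. D28111_at read 2260 then 1469 in the estradiol pools, against 2731 then 1546 in the placebo pools. In both, the 2 arrays numbered 1 were well above the 2 arrays numbered 2, and the values of the treatments overlapped. The log2 fold change of D28111_g_at was -0.06 ± 0.32 (SE, 95% interval -0.81 to 0.69), and that of D28111_at was -0.17 ± 0.32 (limma, adjusted p = 0.998 for both). Quantile normalisation turned the sign of D28111_g_at, to 0.11.

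The other pair of Mobp probe sets spread further. D28110_at had intensities of 339 (estradiol 1), 230.1 (estradiol 2), 774 (placebo 1) and 188 (placebo 2), a ratio of 4.12 between the placebo pools and of 1.47 between the estradiol pools. D28110_g_at gave 1382 for estradiol 1, 480.4 for estradiol 2, 1552 for placebo 1 and 812.5 for placebo 2, so here the wider ratio, 2.88, lay between the estradiol pools and the placebo ratio was 1.91. Their log2 fold changes were -0.44 ± 0.55 (SE) and -0.45 ± 0.49 (limma, adjusted p = 0.998 for both). Across the 4 probe sets the difference between estradiol 1 and 2 ran from 0.53 to 1.49 and that between placebo 1 and 2 from 0.81 to 1.95, so all 4 had the same direction in both groups but not the same size.

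Cnp encodes the phosphodiesterase CNPase, which keeps open the narrow channels of cytoplasm in the sheath. Its probe set, L16532_at, read 861.9 in estradiol 1, 633.7 in estradiol 2, 1015.5 in placebo 1 and 596.4 in placebo 2. The placebo values enclosed both estradiol values. The log2 fold change was -0.07 ± 0.29 (SE, 95% interval -0.75 to 0.60; limma, adjusted p = 0.998), while the pools differed by 0.43 with estradiol and by 0.75 with placebo.

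Mag encodes myelin-associated glycoprotein, an adhesion receptor on the innermost layer of the sheath that faces the axon and is known to inhibit axon regrowth. Its brightest probe set, X06554cds_s_at, had intensities of 887.9 (estradiol 1), 733.7 (estradiol 2), 960.1 (placebo 1) and 839.2 (placebo 2). M22357_g_at read 883.2 then 672.5 in the estradiol pools, against 954.8 then 816.3 in the placebo pools. These 2 probe sets gave the same order of the 4 arrays, with placebo 1 highest and estradiol 2 lowest. Mag had the smallest difference between the placebo pools among the 6 genes, 0.19 in X06554cds_s_at, beside 0.27 between the estradiol pools.

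The dimmer M22357_at gave 240 for estradiol 1, 223.1 for estradiol 2, 236.1 for placebo 1 and 291.7 for placebo 2. It was the only tested member probe set in which placebo 1 lay below placebo 2, by 0.29. The 3 Mag probe sets nonetheless gave close log2 fold changes between treatments, -0.15 ± 0.20, -0.19 ± 0.22 and -0.17 ± 0.22 (SE) for X06554cds_s_at, M22357_g_at and M22357_at (limma, adjusted p = 0.998 for each). All 3 intervals spanned 0, that of X06554cds_s_at from -0.63 to 0.33. These depended on single arrays. X06554cds_s_at ran from -0.29 without estradiol 1 to -0.015 without estradiol 2, and M22357_g_at from -0.38 to 0.00050 without the same arrays. M22357_at ran from -0.31 without placebo 1 to -0.027 without placebo 2.

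Mog encodes myelin oligodendrocyte glycoprotein, which sits on the outermost surface of the sheath and is a target of antibodies in demyelinating disease. M99485_at read 298.4 in estradiol 1, 285 in estradiol 2, 358.1 in placebo 1 and 233.5 in placebo 2. L21995_s_at read 284 then 122.9 in the estradiol pools, against 331.6 then 242.9 in the placebo pools. Estradiol 2 was close to estradiol 1 in the first and far below it in the second, so the 2 probe sets disagreed on that array. Their log2 fold changes were 0.0099 ± 0.25 (SE) for M99485_at, which turned negative with quantile normalisation and median centring, and -0.56 ± 0.37 (SE) for L21995_s_at (limma, adjusted p = 0.998 for both). The latter was the lowest value among the 12 probe sets, with an unadjusted p of 0.170 in limma and a 95% interval from -1.41 to 0.30. It rested on estradiol 2, without which it was 5.1e-05.

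Ugt8 encodes the enzyme that joins galactose to ceramide to make galactocerebroside, the main glycolipid of myelin. Its measurable probe set, rc_AI228110_s_at, had intensities of 372 (estradiol 1), 321.7 (estradiol 2), 418.1 (placebo 1) and 255.8 (placebo 2). The placebo values again enclosed the estradiol values. The log2 fold change was 0.08 ± 0.27 (SE, 95% interval -0.55 to 0.70; limma, adjusted p = 0.998), the highest of the 12.

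**Figure D2:**
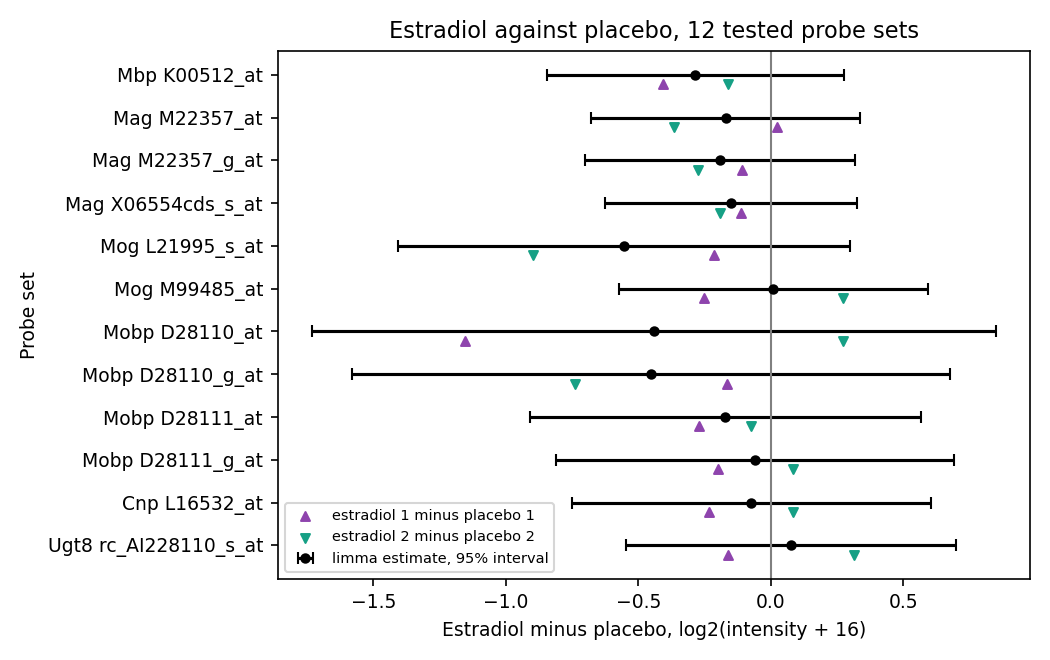
Difference between estradiol and placebo in log2(intensity + 16) for the 12 tested probe sets, as the limma estimate with its 95% interval (black), with the difference between arrays numbered 1 (upward triangles) and between arrays numbered 2 (downward triangles). All 12 intervals include 0, and 11 of 12 upward triangles lie below 0 against 7 of 12 downward ones.

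Read over the 6 genes, each by its brightest probe set, the median log2 fold change between treatments was -0.07, beside 0.01 over all tested probe sets. Values lay below 0 for 4 of 6 genes and for 10 of 12 probe sets, where 48.4% of all tested probe sets were below 0. In 0 of the 12 did both estradiol arrays lie on one side of both placebo arrays, where 29.7% of all tested probe sets did so. The direction depended on which pools were compared. The median over the 6 genes was -0.22 for estradiol 1 against placebo 1, with 6 of 6 genes lower, and 0.08 for estradiol 2 against placebo 2, with 2 of 6 lower. Crossed, it was -0.52 for estradiol 2 against placebo 1, with 6 of 6 lower, and 0.42 for estradiol 1 against placebo 2, with 0 of 6 lower. Leaving out 1 array moved the median to -0.29 without estradiol 1, 0.09 without estradiol 2, 0.30 without placebo 1 and -0.37 without placebo 2. The number of probe sets below 0 was then 12, 4, 5 and 12 in the same order. For a single probe set, 2 against 2 pools cannot give a two-sided exact permutation p below 0.333.

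Between the pools of a group, the member genes moved together. Estradiol 1 lay above estradiol 2 in 6 of 6 genes and 12 of 12 probe sets, where 48.5% of all tested probe sets did so, and placebo 1 lay above placebo 2 in 6 of 6 genes and 11 of 12 probe sets, where 45.3% did so. Among the 1800 tested probe sets with a mean intensity of at least 200, these shares were 48.4% and 46.7%. Both held at once in 6 of 6 genes and 11 of 12 probe sets, where 24.3% of all tested probe sets did so. The median difference over the 6 genes was 0.29 for estradiol and 0.63 for placebo, beside -0.01 and -0.04 over all tested probe sets. With 1 array per pool these differences have no replicate and no test. No source states that the arrays numbered 1 share a day or a litter, so the equal direction in the 2 groups is given as a description.

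**Figure D3:**
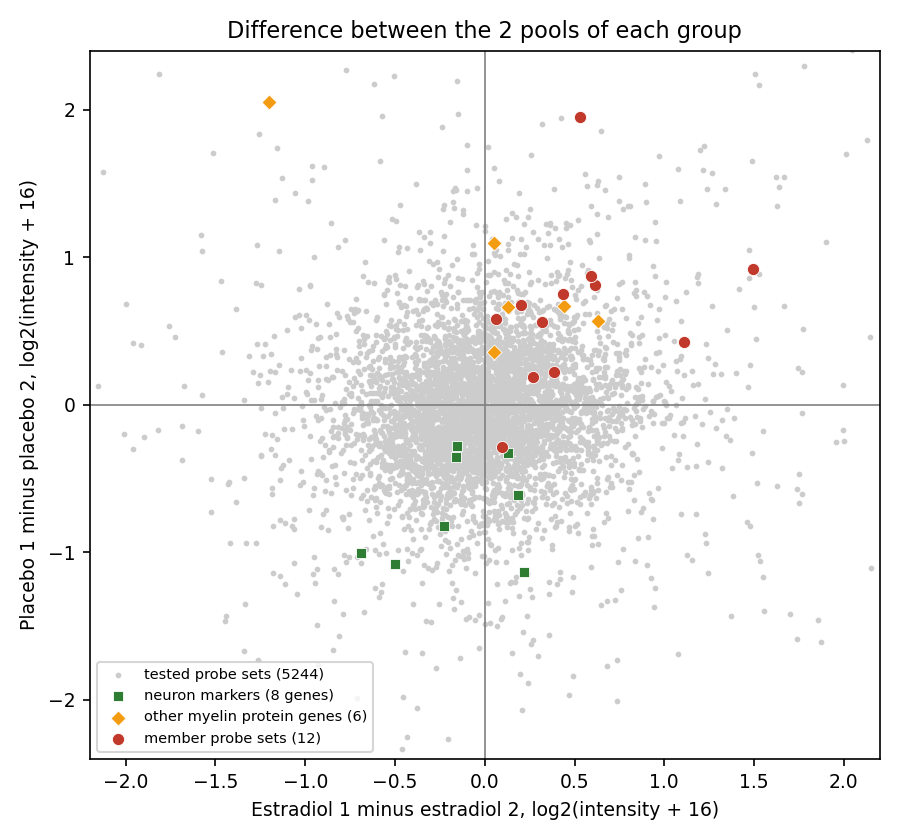
Difference between estradiol 1 and estradiol 2 (horizontal) and between placebo 1 and placebo 2 (vertical) in log2(intensity + 16), for the 5244 tested probe sets in grey (11 lie outside the axes), the 12 member probe sets in red, 6 other genes of myelin proteins in orange and 8 neuron markers in green. Of the red points, 11 of 12 lie to the right of and above 0, while all 8 green points lie below the horizontal line.

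Other genes of myelin membrane proteins went the same way between pools in most cases. Of 16 listed, 6 had a probe set with that symbol alone, and all 6 were tested. Placebo 1 exceeded placebo 2 in 6 of 6, with a median of 0.66, and estradiol 1 exceeded estradiol 2 in 5 of 6, with a median of 0.09. Mal, which encodes a membrane protein of compact myelin, read 856 in estradiol 1, 547.6 in estradiol 2, 1055.4 in placebo 1 and 706.8 in placebo 2, the same order of pools within each group as in the members. Pllp, which encodes plasmolipin, gave 186.5 for estradiol 1, 169.2 for estradiol 2, 320.1 for placebo 1 and 196.4 for placebo 2, and its difference of -0.46 ± 0.27 (SE, log2) was not called (limma, adjusted p = 0.998). Cd82, which encodes a tetraspanin, had the highest value of the list, 0.23. The exception between estradiol pools was Mpzl1, with 34 in estradiol 1, which is near background, and 99 in estradiol 2. Mpzl1 read 140.5 in placebo 1 and 21.8 in placebo 2, below the background of 30.1 on that array. Its place in the placebo count of 6 of 6 therefore also rests on a dim value. Between treatments 0 of the 6 passed, with 3 above 0, 3 below and a median of 0.01.

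Genes of lipid synthesis for myelin had smaller median differences than the members. Of 19 listed, 9 were measured and tested, and the median was 0.12 between the estradiol pools, with 6 of 9 higher in estradiol 1, and 0.32 between the placebo pools, with 8 of 9 higher in placebo 1. Gamt is in this list although it makes creatine, a substrate of energy buffering in oligodendrocytes, and not a lipid. It read 246 then 171.4 in the estradiol pools, against 336.3 then 223.6 in the placebo pools. Cyp51, an enzyme of cholesterol synthesis, gave 349.4 for estradiol 1, 241.5 for estradiol 2, 354.7 for placebo 1 and 260.4 for placebo 2. The 3 genes lower in estradiol 1 than in estradiol 2 were Fdft1, at 213.7 and 309.6, Scd, at 66.3 and 95.5, and Scd2. Between treatments the lowest value was -0.47 for Fdps and the highest 0.22 for Scd2, a desaturase gene expressed strongly in brain, and 0 of 9 passed in limma. The median was -0.03, with 3 above 0 and 6 below.

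Other genes enriched in mature oligodendrocytes followed the members between the placebo pools and less evenly between the estradiol pools. Of 23 listed, 14 had a probe set and 13 were tested. Placebo 1 exceeded placebo 2 in 12 of 13, with a median of 0.24, and estradiol 1 exceeded estradiol 2 in 8 of 13, with a median of 0.11. Qdpr, which encodes dihydropteridine reductase, read 1045.5 then 783.6 in the estradiol pools, against 1262.1 then 812 in the placebo pools. Car2, the carbonic anhydrase of oligodendrocytes, gave 580.2 for estradiol 1, 679.7 for estradiol 2, 865.5 for placebo 1 and 523.4 for placebo 2, so it went against the members between the estradiol pools. Several genes of this list, such as Mapt, which encodes tau, are also expressed in neurons or astrocytes. Between treatments 10 of 13 lay below 0, with a median of -0.13, from -0.51 for Gjb1, a connexin gene, to 0.31 for the chaperone gene Cryab, and 0 passed in limma.

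Genes of the oligodendrocyte lineage and its precursors did not share the pattern of the members between the estradiol pools. Of 19 listed, 12 had a probe set and 11 were tested. Estradiol 1 exceeded estradiol 2 in 3 of 11, with a median of -0.20, and placebo 1 exceeded placebo 2 in 6 of 11, with a median of 0.16. Sox10, the transcription factor that oligodendrocytes carry through life, had intensities of 102.2 (estradiol 1), 108.9 (estradiol 2), 86.3 (placebo 1) and 46.6 (placebo 2). Myrf, the factor that switches on myelin genes, read 796.7 then 830.1 in the estradiol pools, against 981 then 634.9 in the placebo pools. The precursor markers Pdgfra, at 99.9 in estradiol 1 and 154.1 in estradiol 2, and Cspg4, at 57.9 and 75.9, were lower in estradiol 1 than in estradiol 2. Between placebo 1 and 2 Pdgfra read 149.4 and 117.3 and Cspg4 55.1 and 71.3. Between treatments the values ran from -0.73 for Enpp2 to 0.62 for Ptprz1, with 7 above 0, 4 below and a median of 0.06, and 0 passed in limma. The difference between this list and the members was not tested, and neither was which cells gave the signal of the listed genes.

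Markers of other cells in the tissue moved between the same pools, and their part in the member values was not tested. The summed intensity of the 6 members, each by its brightest probe set, was 16720 in estradiol 1, 12720 in estradiol 2, 20810 in placebo 1 and 13350 in placebo 2. Most of this sum came from Mbp and Mobp on every array, at 9112 and 5192 in estradiol 1. The sum of 8 neuron markers, of 12 listed, was 5978, 6322, 4885 and 7365 on the arrays in the same order. Snap25 and Nefl gave most of it, at 2664 and 1172 in estradiol 1. Such sums mainly follow their brightest probe sets. The neuron sum was lowest in placebo 1, where the member sum was highest. Neuron markers were lower in placebo 1 than in placebo 2 in 8 of 8 genes, with a median of -0.72. They were lower in estradiol 1 than in estradiol 2 in 5 of 8, with a median of -0.16. Gad1, which makes GABA, stood at 294.5 in placebo 1 and 638.6 in placebo 2, and Nefm, a neurofilament gene, at 360.9 and 650.3. Of the 8 markers, 7 were above background on all 4 arrays.

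Among the lists, choroid plexus and meninges markers had the widest range of differences between pools. The sum of 7 tested markers, of 9 listed, was 1937 in estradiol 1, 6538 in estradiol 2, 11560 in placebo 1 and 999.8 in placebo 2. Ttr, the transthyretin gene of choroid plexus, gave most of the sum in estradiol 2 and placebo 1, at 4312 and 8034, and stood at 165.3 in estradiol 1 and 74.3 in placebo 2. On those 2 arrays most of the sum came from Ptgds, a prostaglandin synthase gene placed in this list, at 1301 and 550.6. Which cells gave the Ptgds signal on arrays with little Ttr was not tested. Of the arrays with much Ttr, placebo 1 was the highest for 11 of 12 member probe sets and estradiol 2 the lowest for 7 of 12. Enpp2, which stood at 1170 in placebo 1 and between 237.5 and 379.1 on the other 3 arrays, is also strongly expressed in choroid plexus. Tested striatum markers, 8 of 12 listed, had a median difference of -0.32 for estradiol 1 minus 2 and -0.14 for placebo 1 minus 2, opposite in sign to the members. Their summed intensity was 2797, 2612, 1865 and 1952 on the 4 arrays in that order.

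For the remaining lists, the median for placebo 1 minus placebo 2 was 0.06 over 8 astrocyte markers, 0.26 over 5 microglia and macrophage markers and 0.02 over 5 blood genes, and for estradiol 1 minus estradiol 2 it was -0.0069, 0.15 and -0.80. Summed intensities in estradiol 1, estradiol 2, placebo 1 and placebo 2 were 11270, 11030, 12340 and 11470 for astrocyte markers. They were 653.6, 776, 1014 and 733.3 for microglia and macrophage markers and 1872, 4249, 6173 and 5319 for blood genes. Between treatments 0 genes of these lists and of the neuron, striatum and choroid plexus lists passed in limma. The lowest and highest log2 fold changes were -0.24 (Nefl) and 0.57 (Gad1) for neurons, -0.35 (Gja1) and 0.43 (Vim) for astrocytes, -0.47 (Ptprc) and -0.014 (C1qb) for microglia and macrophages. For striatum they were -0.16 (Pdyn) and 1.68 (Tac1), for choroid plexus and meninges -0.12 (Dcn) and 0.20 (Ptgds), and for blood -1.13 (Hbb) and -0.41 (Alas2). Of the Schwann cell genes, which would mark myelin of peripheral nerve, 2 of 4 were measured. Prx, the defining one of these, was not above background on every array, and Pmp22, which oligodendrocytes can also express, read 289.6, 279.1, 282.3 and 217 on the arrays.

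**Figure D4:**
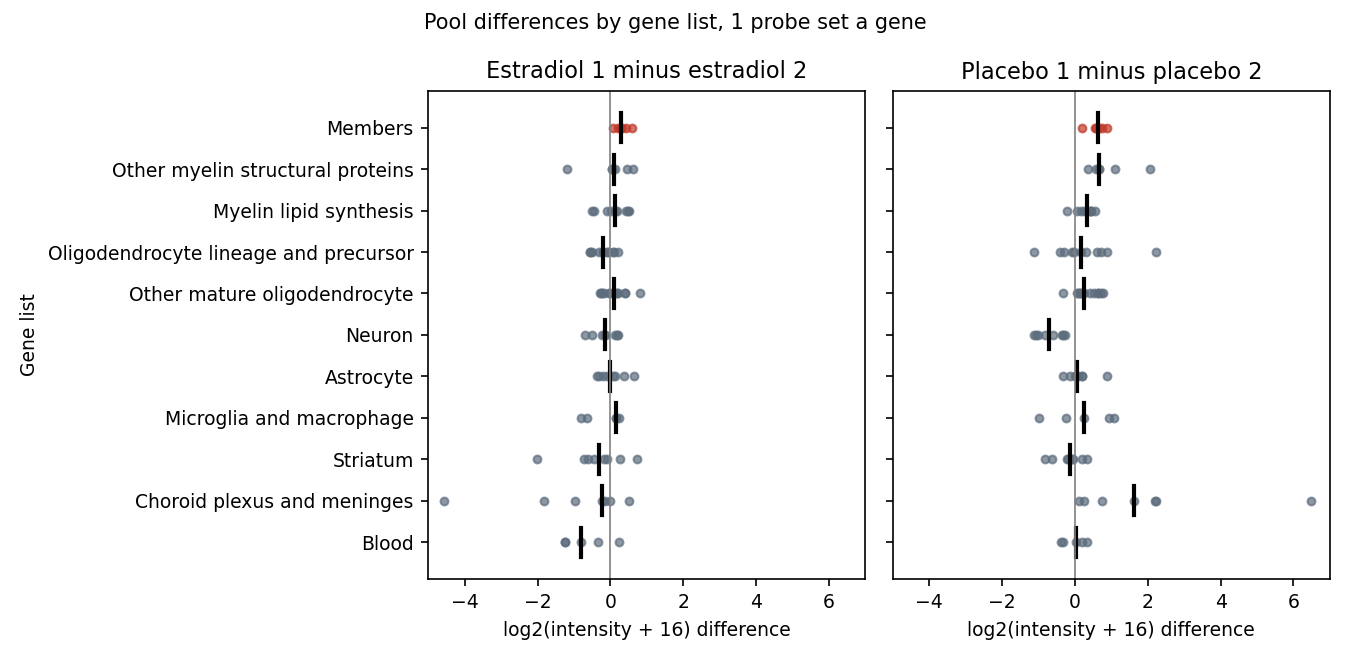
Difference between the 2 pools of each group in log2(intensity + 16), 1 probe set a gene, for the 6 members (red) and 10 lists of other genes (grey), with a black bar at the median of each. The members lie to the right of 0 in both panels, with medians of 0.29 and 0.63, whereas the neuron medians are -0.16 and -0.72 and the choroid plexus points spread from -4.58 to 6.48.

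The mean pattern of the 6 genes, each centred on its own mean, was 0.12 in estradiol 1, -0.20 in estradiol 2, 0.34 in placebo 1 and -0.26 in placebo 2. Cnp lay closest to it, with a root mean square difference of 0.07 over the 4 arrays, and Mag farthest, with 0.15. Among other genes whose range over the arrays was at least 0.8 of the range of this pattern, 2461 probe sets, those nearest to it were Cdc20 with 0.01, Lmna with 0.02, Ccnd1 with 0.03, Nqo1 with 0.03 and Insig1 with 0.04. Lmna, which encodes lamins of the nuclear envelope, gave 194.7 for estradiol 1, 155.8 for estradiol 2, 230.4 for placebo 1 and 152 for placebo 2. Insig1, a sterol-responsive regulator of cholesterol synthesis, read 359.5 then 303.5 in the estradiol pools, against 423.9 then 271 in the placebo pools. Patterns over only 4 arrays are matched closely by some of many probe sets, and nearness here is a description of these arrays.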

How the data were processed

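The authors deposited 1 linear intensity per probe set and array, already scaled to a common level, since means after trimming 2% at each end lie between 150.18 and 150.20. The sources used here do not name the program. The table has 8799 rows; without its 59 controls, the platform annotation gave 1 symbol to 7006 of 8740 probe sets. Intensities were taken as log2(intensity + 16), which understates changes of dim probe sets, and probe sets with a mean below the 40th percentile, 37.5, were dropped, leaving 5244. Background was the brightest of 23 foreign control probe sets on each array. Estradiol and placebo were compared with limma 3.58.1 in R 4.3.3 (lmFit, then eBayes with trend on mean intensity; two-sided; Benjamini-Hochberg adjusted p below 0.05 over all tested probe sets). The fit had 2 residual and 5.63 prior degrees of freedom. Its code was checked on simulated data with less noise than these arrays, so that check does not measure how many real changes would be called here. Replicates are pools of different animals, per the series design text, and the number of arrays limits the precision. Every member probe set is named. From other lists, the named genes are those at the extremes, defining markers and examples chosen after their values were seen, and the 5 nearest patterns are the genes of smallest root mean square difference. The members and lists were chosen with earlier results of these data known. Tables and plots used Python 3.11.15, pandas 2.3.3 and matplotlib 3.10.9.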

Additional observations from a re-analysis of the deposited data

How the results depend on the processing

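Each group had 2 arrays, and the reason why no probe set was called was not tested. The count of probe sets called by limma was 0 under all 12 alternatives run on it (offsets of 1 and 64, no filter, a filter at the 60th percentile, quantile normalisation, median centring, no intensity trend, a replicate block, and each array left out), with 89 to 337 at an unadjusted p below 0.05. With all 4 arrays kept, member probe sets kept their sign in 93 of 96 values. The filter settings, the fit without intensity trend and the replicate block cannot change a fold change here. Only values from the other offsets, quantile normalisation and median centring could therefore change sign. The exceptions were Mog M99485_at, at -0.0083 with quantile normalisation and -0.023 with median centring, and Mobp D28111_g_at, at 0.11 with quantile normalisation. The smallest adjusted p of any member was 0.989 over these settings, with the replicate block, and 0.956 with 1 array left out, placebo 2.

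With 1 array left out, 15 of 48 values changed sign, in 9 probe sets, and the cause was not tested. Values then ran from -0.38 to 0.00050 for Mag M22357_g_at, -1.11 to 5.1e-05 for Mog L21995_s_at, -0.28 to 0.30 for Mog M99485_at, -1.42 to 0.54 for Mobp D28110_at, -1.20 to 0.29 for Mobp D28110_g_at, -0.58 to 0.24 for Mobp D28111_at, -0.50 to 0.38 for Mobp D28111_g_at, -0.45 to 0.30 for Cnp and -0.26 to 0.41 for Ugt8 rc_AI228110_s_at. The remaining 3 kept their sign, with ranges of -0.57 to -0.0038 for Mbp, -0.29 to -0.015 for Mag X06554cds_s_at and -0.31 to -0.027 for Mag M22357_at. The median over the 6 genes ran from -0.37 to 0.30, and it was -0.22 with the mean of a gene's probe sets.

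A replicate block on the pool number gave 0 calls and 210 probe sets at an unadjusted p below 0.05, against 161 without it. The member median was -0.07 with the block, which cannot change it, since both groups hold both pool numbers. The differences between pools 1 and 2 of the groups had a correlation of 0.0363 across tested probe sets, which are not independent. Whether arrays of the same number share a factor that acts on some genes was not tested. The numbers were not taken to pair the pools, because the series design text gives independent pools per group and names no shared batch.

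The median difference between the estradiol pools lay between 0.22 and 0.38, and that between the placebo pools between 0.58 and 0.67, under the other offsets, filters, normalisations and probe set rule, which were run after seeing the data. The filters could not move these medians, since the same member probe sets passed each of them.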
